A study of Mus musculus with 17 samples.

Results

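The comparison described here is between Kit+ and Kit- cells recovered from the same kind of culture, the stromal line OP9 carrying the Notch ligand Dll4. Its members are 6 of the 17 arrays of the series, chosen by their titles: 3 Ckit positive arrays (Kit+D) and 3 Ckit negative arrays (Kit-D) at 2 h. All cells came from pooled aorta-gonad-mesonephros (AGM) regions of mouse embryos at stage E11.5 and had been sorted as CD31+CD45-Ter119-, that is, with the endothelial adhesion protein CD31 and without the pan-leukocyte and erythroid surface markers. After 2 h on OP9-Dll4 in Iscove's medium with serum, IL3, SCF (the ligand of Kit), IL6, IGF-1, FGF, VEGF and erythropoietin, the cells were sorted again into CD31+CD45-Kit+ and CD31+CD45-Kit- fractions, and the RNA of each fraction, in nanogram amounts, was amplified before hybridisation to an Affymetrix array. OP9 is a stromal line from mouse bone marrow. The other groups used for comparison share the embryonic day and the first sort. They are fresh cells divided by Kit at once (Kit+ and Kit-, 3 arrays each) and cells cultured for 2 h on OP9 carrying Jag1 (Kit+J, 3 arrays, and Kit-J, 2 arrays). Fresh cells were hybridised as part of an earlier series, so that for them the effects of culture and of the array set cannot be told apart. Per the study's methods the replicates are independent sorts. In bulk samples such as these, fewer cells of a type and less RNA per cell cannot be told apart.

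Kit is the receptor tyrosine kinase for SCF. In the AGM it marks the cell clusters that bud from the aortic wall and give rise to the first haematopoietic stem and progenitor cells, while the aortic lining that keeps VE-cadherin and the VEGF and angiopoietin receptors is mostly Kit-. Kit is also carried by primordial germ cells, which at this stage lie in the genital ridges, the gonadal part of the AGM. Notch is a receptor that is cut when a neighbouring cell presents Delta-like or Jagged ligands. Its released domain joins the DNA-binding protein RBPJ and turns on genes of the Hes and Hey families, and in arteries Efnb2 and Dll4 itself.

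Kit, by which the fractions were sorted, was read first as a check of the labels. It had log2 values of 8.98, 8.51 and 8.99 on the Kit+D arrays and 7.72, 7.05 and 8.02 on the Kit-D arrays (RMA log2 values, replicates 1 to 3 in order, here and below). The groups did not overlap, and the mean difference of 1.24 ± 0.26 (SE of the fit, 3 arrays against 3) amounts to 2.35-fold (adjusted p = 0.00633). The replicate 3 arrays of both groups carry 1 description line that names the opposite Kit fraction, and so do both Kit-J arrays. On the OP9-Dll4 arrays the level of Kit followed the titles. On OP9-Jag1 it ran from 8.50 to 9.08 on the Kit-J arrays and from 9.02 to 9.93 on the Kit+J arrays, which overlap. Pecam1, which encodes CD31 and was selected for in both fractions, had log2 values of 7.60, 8.77 and 9.34 on the Kit+D arrays and 9.89, 9.97 and 10.25 on the Kit-D arrays, lower in Kit+D on every array (difference -1.47 ± 0.32, adjusted p = 0.00738). Ptprc, which encodes the CD45 that was selected against, had log2 values of 8.99, 5.54 and 4.64 on the Kit+D arrays and 8.59, 4.46 and 4.16 on the Kit-D arrays. Its replicate 1 arrays stand high in both groups, and the other 4 stand low (difference 0.65 ± 1.06, adjusted p = 0.742).

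The Kit promoter is shown because Kit is the gene of the gate. It is given as the 250 bases before the annotated start, from RefSeq on build GRCm38.p6, at chr5:75574737-75574986 (forward strand). The capitals mark AGGAAG, a core that ETS family factors can bind. These letters, searched as AGGAAG or CTTCCT, stood in 29.2% of 27025 such windows, 1 per gene.
Kit: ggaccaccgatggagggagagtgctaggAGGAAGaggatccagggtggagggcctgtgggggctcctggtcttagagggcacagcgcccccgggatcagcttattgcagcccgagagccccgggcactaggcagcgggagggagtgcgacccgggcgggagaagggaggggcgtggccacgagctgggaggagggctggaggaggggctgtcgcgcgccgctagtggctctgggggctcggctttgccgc

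Of 19937 genes tested, 2615 differed between Kit+D and Kit-D at an adjusted p under 0.05 (13.1%), 1296 of them higher in Kit+D (6.5%) and 1319 lower (6.62%). The numbers in the 2 directions were close, but the sizes were not: among called genes 450 were at least 2-fold higher and 768 at least 2-fold lower, 38 and 164 passed 4-fold, and 2 and 31 passed 8-fold. The median difference over all genes was 0.05 on the log2 scale. On 2518 of the called genes the 3 arrays of each group did not overlap, which held for 6388 of all genes (32%). Kit+D was the more variable group, with a median SD per gene of 0.257 against 0.161 in Kit-D. With the replicate number as a block, the fit of all arrays called 2270 genes and that of the OP9-Dll4 arrays alone 1345 (514 higher and 831 lower). The same 6 arrays without the block gave 1321. Leaving out Kit-D replicate 2 or 3 or Kit+D replicate 2 lowered the count to 1573, 1593 or 1629, and leaving out the replicate 3 arrays of both groups lowered it to 1488.

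**Figure D1:**
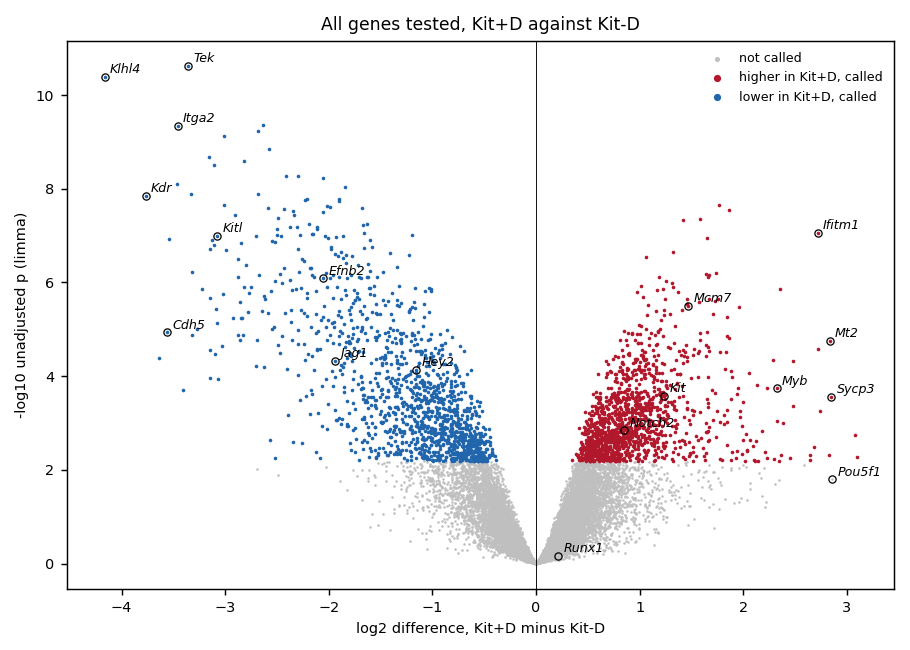
Each point is 1 of the 19937 genes: the horizontal axis gives the log2 difference of Kit+D minus Kit-D and the vertical axis -log10 of the unadjusted limma p, with the 1296 genes called higher in red, the 1319 called lower in blue and the rest in grey. The arm of lower genes reaches farther (Klhl4 at -4.16) than that of higher genes (Sycp3 at 2.85 among those without overlap), and Runx1 lies near 0.

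Genes of the vessel lining, Kdr, Tek, Cdh5 and Emcn, were among the 12 largest falls in Kit+D. Kdr, which encodes the VEGF receptor VEGFR2, had log2 values of 5.47, 6.38 and 6.89 on the Kit+D arrays and 9.95, 9.83 and 10.26 on the Kit-D arrays. Every Kit+D array lay well below every Kit-D array. Kdr fell by 3.77 ± 0.34 on the log2 scale, 13.6-fold (adjusted p = 1.56e-05). Tek, the angiopoietin receptor Tie2, had log2 values of 5.86, 6.02 and 5.73 on the Kit+D arrays and 9.31, 8.87 and 9.49 on the Kit-D arrays and fell by 3.35 ± 0.19 with little spread in either group (adjusted p = 4.08e-07). Klhl4, a gene of the Kelch-like family, had log2 values of 4.94, 6.18 and 5.49 on the Kit+D arrays and 9.63, 9.53 and 9.93 on the Kit-D arrays and the largest fall among the ranked genes, 4.16 ± 0.24 (adjusted p = 4.08e-07). Other falls among the 12 largest were those of Cdh5, the VE-cadherin of endothelial junctions (-3.56), Emcn, the surface mucin endomucin (-3.63), Itga2, the alpha chain of a collagen-binding integrin (-3.46), Lama4, a laminin chain of vessel basement membrane (-3.32), Flrt2 and Sema6d, a pair of guidance molecules (-3.54 and -3.33), Nfib (-3.46), Syne2 (-3.32) and Ppbp, a chemokine of platelets (-3.41). Cdh5 and Emcn were uneven within Kit+D. Cdh5 had log2 values of 5.93, 8.33 and 8.58 on the Kit+D arrays and 11.06, 11.05 and 11.42 on the Kit-D arrays, and Emcn had log2 values of 5.25, 8.33 and 8.37 on the Kit+D arrays and 10.80, 10.93 and 11.12 on the Kit-D arrays. Kit+D replicate 1 was the lowest for both.

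Of 40 measured genes of endothelial identity 39 fell and 0 rose (97.5% against 13.1% of all genes). Their median difference was -1.66 beside 0.05 over all genes. The exception was Adgrl4, an adhesion receptor of endothelium, with log2 values of 8.50, 7.30 and 6.17 on the Kit+D arrays and 8.60, 8.69 and 9.25 on the Kit-D arrays (adjusted p = 0.0524). Its first Kit+D array lay just below the Kit-D arrays. On 39 of the 40 the groups did not overlap, Lyve1 being the one that did. Over all genes 32% did not overlap. The mean log2 value over the list was 6.03, 6.45 and 6.43 on the Kit+D arrays and 8.11, 8.10 and 8.57 on the Kit-D arrays. The count was 40 without Kit+D replicate 1, 32 without both replicate 3 arrays, 35 with all arrays scaled to housekeeping genes and 29 in a fit of the 6 arrays alone. Ramp2, which makes Calcrl a receptor for adrenomedullin, fell by 3.09 and Calcrl itself by 2.12. Aplnr, the apelin receptor, had log2 values of 5.78, 7.51 and 7.81 on the Kit+D arrays and 10.23, 9.998 and 10.31 on the Kit-D arrays and fell by 3.15 ± 0.42 (adjusted p = 0.000253). Edn1, which encodes the peptide endothelin, fell by 2.42. Cav1, the main coat protein of caveolae, fell by 3.10, and 6 of 9 caveolar and diaphragm genes (66.7%) did so in all.

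Of 10 VEGF receptors, co-receptors and ligands 5 fell (50% against 13.1% of all genes), and these were the receptors. Beside Kdr they were Flt1, which binds VEGF tightly and signals weakly (-2.75 ± 0.35), Flt4, the receptor for VEGF-C (-2.02 ± 0.39), and the co-receptors Nrp1 (-2.29 ± 0.19) and Nrp2 (-2.32 ± 0.30). Among the ligands Vegfa had log2 values of 7.18, 7.36 and 7.42 on the Kit+D arrays and 7.42, 7.85 and 7.85 on the Kit-D arrays (adjusted p = 0.292), and none of Vegfa, Vegfb, Vegfc, Vegfd and Pgf passed the test (adjusted p from 0.0738 to 0.33). In the Tie system the receptors Tek and Tie1 (-1.78) and the phosphatase Ptprb, which acts on Tie2 and VE-cadherin (-3.16), fell on arrays that did not overlap. Angpt2, a ligand of Tie2, fell by 1.08 (adjusted p = 0.0282), a call lost without Kit+D replicate 1 or Kit-D replicate 1 or 3 (adjusted p 0.0592 to 0.135). Angpt1, the other main ligand, had log2 values of 6.77, 4.16 and 5.20 on the Kit+D arrays and 5.79, 4.995 and 6.72 on the Kit-D arrays, with overlap (adjusted p = 0.708).

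Promoter windows of endothelial genes are printed because the members moved together. Of the 40 measured genes 24 had a window in the RefSeq table, and 17 of these (70.8%) held AGGAAG on either strand, against 29.2% of all windows. The 3 shown are those with the smallest adjusted p among the 17: Stab2, a scavenger receptor of sinusoidal endothelium, at chr10:87007943-87008192 (reverse strand), Flt1 at chr5:147726012-147726261 (reverse strand) and Rasgrp3, an activator of Ras proteins, at chr17:75435655-75435904 (forward strand). Capitals mark the letters AGGAAG or their reverse complement CTTCCT. These are letter matches and no measured sites.
Stab2: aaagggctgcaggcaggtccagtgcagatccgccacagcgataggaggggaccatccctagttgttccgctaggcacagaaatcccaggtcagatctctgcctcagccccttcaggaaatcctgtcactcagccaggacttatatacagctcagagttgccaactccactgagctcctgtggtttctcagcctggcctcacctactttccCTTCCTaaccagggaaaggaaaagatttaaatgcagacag
Flt1: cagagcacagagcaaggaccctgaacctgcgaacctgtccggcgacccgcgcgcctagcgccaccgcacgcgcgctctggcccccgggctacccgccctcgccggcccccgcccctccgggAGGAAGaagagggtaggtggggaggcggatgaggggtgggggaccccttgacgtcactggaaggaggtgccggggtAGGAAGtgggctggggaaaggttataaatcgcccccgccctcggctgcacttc
Rasgrp3: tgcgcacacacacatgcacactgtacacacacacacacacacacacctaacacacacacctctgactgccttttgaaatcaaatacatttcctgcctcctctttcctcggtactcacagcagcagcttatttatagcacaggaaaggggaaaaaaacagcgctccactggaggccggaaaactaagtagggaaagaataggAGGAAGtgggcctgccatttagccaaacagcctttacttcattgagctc

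**Figure D2:**
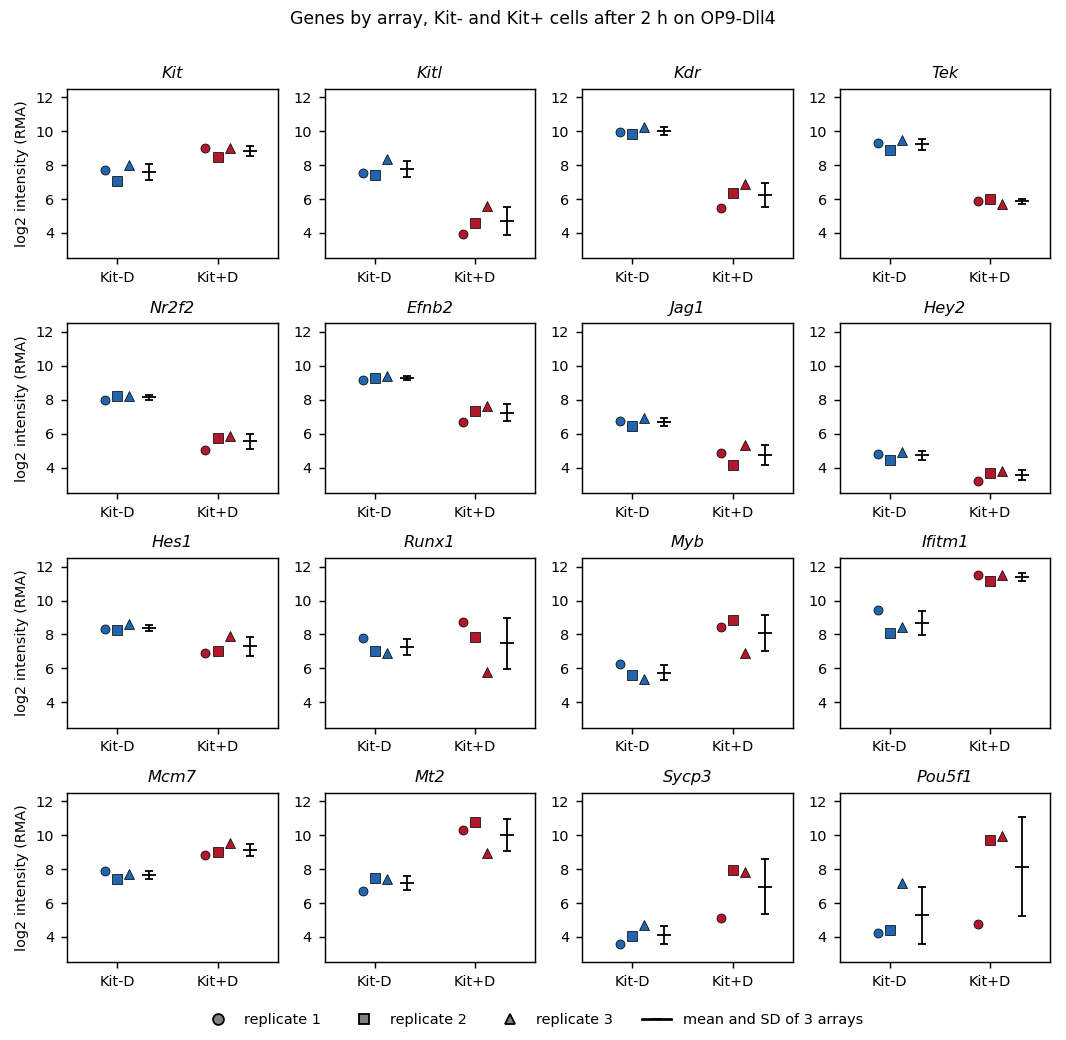
RMA log2 intensity of 16 genes on each of the 3 Kit-D (blue) and 3 Kit+D (red) arrays, with the replicate number as the marker shape and the mean with its SD in black. Tek, Nr2f2 and Kdr are well below their Kit-D levels on every Kit+D array, Runx1 overlaps, and Pou5f1 is low on Kit+D replicate 1 (4.75, 9.70 and 9.93 on the 3 arrays).

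Arterial and venous genes were lower together. Of 20 arterial genes 12 fell and 0 rose (60% against 13.1% of all genes, median -1.18). Of 12 venous and lymphatic genes 9 fell and 0 rose (75%, median -2.13). Among the arterial genes, Gja5, a gap junction protein of arteries, had log2 values of 4.83, 5.32 and 6.07 on the Kit+D arrays and 8.33, 8.50 and 8.38 on the Kit-D arrays and fell by 2.996 ± 0.33 (adjusted p = 5.37e-05). Sox17, a regulator of arterial fate, had log2 values of 3.91, 4.87 and 4.91 on the Kit+D arrays and 6.27, 5.75 and 6.21 on the Kit-D arrays and fell by 1.52 ± 0.28 (adjusted p = 0.00298). Cxcr4, a chemokine receptor, had log2 values of 7.28, 8.43 and 8.37 on the Kit+D arrays and 8.08, 8.43 and 8.29 on the Kit-D arrays, with overlap (adjusted p = 0.562). Among the venous genes, Nr2f2, the regulator COUP-TFII that holds Notch down in veins, had log2 values of 5.04, 5.74 and 5.88 on the Kit+D arrays and 7.98, 8.22 and 8.21 on the Kit-D arrays and fell by 2.58 ± 0.19 (adjusted p = 4.12e-06). Prox1, the regulator of lymphatic fate, fell by 2.24 ± 0.32 on arrays that did not overlap (adjusted p = 0.000411). Ephb4 and Lyve1 fell by 1.52 and 1.31 with adjusted p of 0.0386 and 0.0359. Ephb4 lost its call without any of the Kit-D arrays or Kit+D replicate 1 or 2 (adjusted p 0.0511 to 0.126), and Lyve1 without Kit-D replicate 2 or 3 or Kit+D replicate 2 or 3 (0.105 to 0.159). Lyve1, whose first Kit+D array lay among the Kit-D arrays, also lost it with the replicate block over all arrays (adjusted p = 0.0925).

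Of 28 transcription factors of endothelium 19 fell and 0 rose (67.9% against 13.1% of all genes, median -1.48). Ldb2, a LIM-domain binding protein, fell by 3.10 ± 0.33, Tcf4, an E protein, by 2.06 ± 0.20, and Epas1, the hypoxia factor HIF-2 alpha, by 2.47 ± 0.42. The ETS factors Erg, Fli1 and Elk3 fell by 1.66, 2.01 and 1.72 (adjusted p = 0.00624, 0.0079 and 9.22e-05). Fli1 was graded within Kit+D, with log2 values of 9.05, 7.75 and 6.79 on the Kit+D arrays and 9.93, 9.68 and 10.004 on the Kit-D arrays. Mecom, the stem cell and endothelial factor Evi1, had log2 values of 4.59, 5.34 and 5.55 on the Kit+D arrays and 7.97, 8.28 and 8.59 on the Kit-D arrays and fell by 3.12 ± 0.33 (adjusted p = 3.88e-05).

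Notch receptors and ligands moved in both directions. Of 9 receptors and ligands 1 rose and 2 fell (33.3% against 13.1% of all genes). Jag1, a ligand that the aortic lining expresses, had log2 values of 4.84, 4.15 and 5.32 on the Kit+D arrays and 6.74, 6.46 and 6.94 on the Kit-D arrays, with no overlap, and fell by 1.94 ± 0.34, 3.85-fold (adjusted p = 0.00196). Dll4, the same ligand that the stroma presents, had log2 values of 4.30, 4.37 and 4.98 on the Kit+D arrays and 5.57, 5.56 and 6.21 on the Kit-D arrays and fell by 1.23 ± 0.23 (adjusted p = 0.00311). The receptor Notch1 had log2 values of 7.26, 7.18 and 7.35 on the Kit+D arrays and 7.58, 7.44 and 8.18 on the Kit-D arrays (difference -0.47 ± 0.23, adjusted p = 0.194). Notch4, an endothelial receptor, differed by -0.59 ± 0.23 (adjusted p = 0.109). Notch2 was the member that rose, with log2 values of 7.41, 7.11 and 6.23 on the Kit+D arrays and 6.08, 6.01 and 6.13 on the Kit-D arrays (difference 0.85 ± 0.22, adjusted p = 0.0186). Its call was lost without Kit+D replicate 1 or 2 or Kit-D replicate 1 or 2 (adjusted p 0.0507 to 0.0764). Notch3, Jag2, Dll1 and Dll3 had differences between -0.26 and 0.19, and none passed the test.

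Of 16 Notch target genes 5 fell and 0 rose (31.2%, median -0.37). Efnb2, the arterial ephrin, had log2 values of 6.69, 7.36 and 7.65 on the Kit+D arrays and 9.15, 9.30 and 9.41 on the Kit-D arrays and fell by 2.05 ± 0.25, 4.16-fold (adjusted p = 0.000133). Hey2, an arterial repressor and direct target, had log2 values of 3.22, 3.68 and 3.78 on the Kit+D arrays and 4.81, 4.44 and 4.91 on the Kit-D arrays and fell by 1.16 ± 0.21 (adjusted p = 0.00265). Its Kit+D values lay below 4.03, the lower quartile of all probe set values, so that its level there was near the floor. Ccnd1, the cyclin D1 of the G1 phase, had log2 values of 7.85, 7.78 and 8.06 on the Kit+D arrays and 9.12, 9.02 and 9.88 on the Kit-D arrays and fell by 1.44 ± 0.28 (adjusted p = 0.00341). For these 3 genes every Kit+D array lay below every Kit-D array. Hes1, a repressor and direct target, had log2 values of 6.93, 7.01 and 7.94 on the Kit+D arrays and 8.29, 8.25 and 8.62 on the Kit-D arrays and fell by 1.10 ± 0.32 (adjusted p = 0.0337). Nrarp, which damps Notch signals, had log2 values of 5.12, 5.74 and 5.83 on the Kit+D arrays and 6.01, 6.85 and 6.96 on the Kit-D arrays and fell by 1.04 ± 0.28 (adjusted p = 0.0227). The Hes1 call was lost without any of the Kit-D arrays or Kit+D replicate 1 or 2 (adjusted p 0.0684 to 0.126), and that of Nrarp without Kit-D replicate 2 or 3 or Kit+D replicate 1 (0.0696 to 0.102). The count of the list was 3 without Kit-D replicate 2 or 3 or Kit+D replicate 1.

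Hey1, a relative of Hey2, had log2 values of 5.96, 8.22 and 9.23 on the Kit+D arrays and 8.31, 8.71 and 9.06 on the Kit-D arrays. Kit+D replicate 1 was the lowest array (difference -0.88 ± 0.55, adjusted p = 0.324). Gata2 and Myc, a pair of targets with roles in blood progenitors, overlapped, with differences of 0.29 ± 0.33 and -0.29 ± 0.43 (adjusted p = 0.615 and 0.718). Heyl, Hes5, Dtx1, Il2ra and Ptcra had differences between -0.32 and 0.21, Hes7 and Bcl6 had -0.54 and -0.41, and none passed the test. Among 21 fringes and other modulators 2 fell and 0 rose (9.52%, below the 13.1% of all genes). These were Numb, an inhibitor of Notch (-1.11 ± 0.19, adjusted p = 0.00154), and Egfl7, a secreted endothelial protein (-1.51 ± 0.22, adjusted p = 0.000419).

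The promoter window of Hey2 is shown as that of the called Notch target in which the RBPJ site GTGGGAA, or its reverse complement TTCCCAC, was found with the smallest adjusted p. It lies at chr10:30842784-30843033 (reverse strand), with the match in capitals. Of 11 Notch targets with a window 3 (27.3%) held these letters, and of all windows 5.41% did.
Hey2: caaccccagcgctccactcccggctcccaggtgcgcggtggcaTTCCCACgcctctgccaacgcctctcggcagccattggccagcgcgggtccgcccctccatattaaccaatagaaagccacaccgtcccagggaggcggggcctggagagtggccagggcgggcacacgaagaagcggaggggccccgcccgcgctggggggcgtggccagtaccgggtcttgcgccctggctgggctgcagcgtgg

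Kitl, which encodes SCF and so the ligand of the gate's receptor, moved opposite to Kit. It had log2 values of 3.94, 4.56 and 5.58 on the Kit+D arrays and 7.55, 7.44 and 8.34 on the Kit-D arrays, and fell by 3.08 ± 0.32 in Kit+D, 8.45-fold (adjusted p = 3.64e-05). Averaged over all arrays of the series, Kitl lay below the median of all probe set values (5.29). SCF protein was also added to the culture medium.

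**Figure D3:**
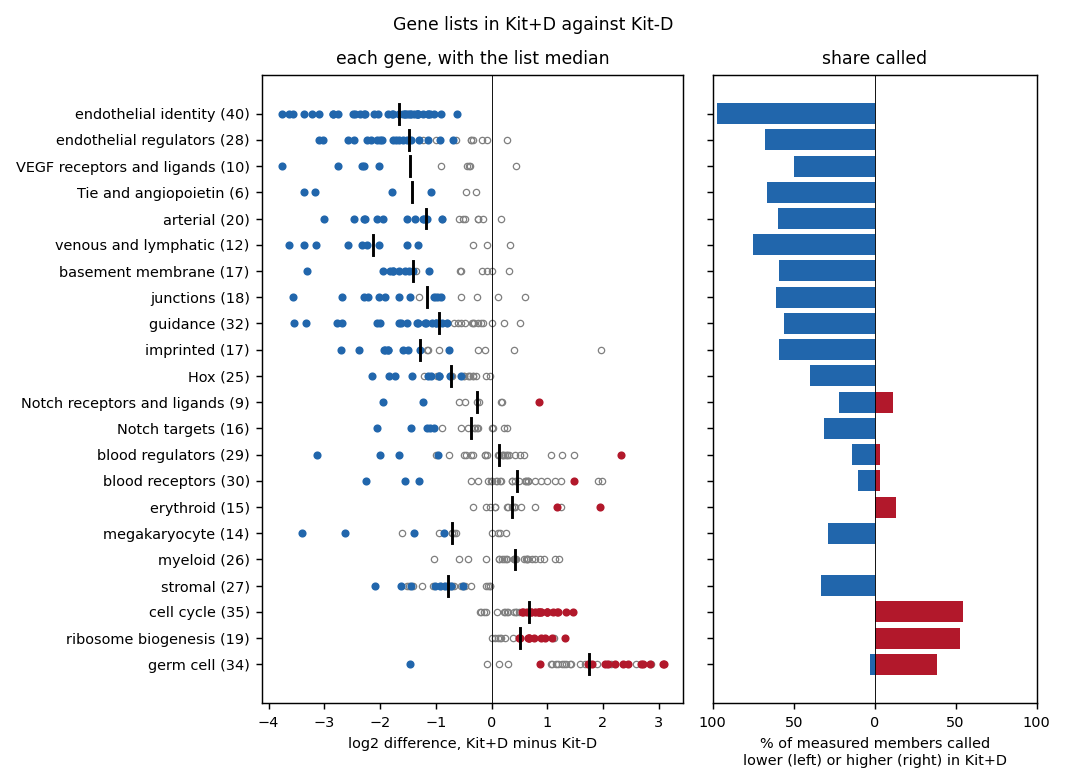
Left, the log2 difference of Kit+D minus Kit-D for every measured gene of 22 lists (numbers measured in parentheses), filled where called and open where not, with the list median as a black bar; right, the percentage of measured members called lower (blue) or higher (red). Venous and lymphatic genes have the lowest median (-2.13, with endothelial identity at -1.66) and germ cell genes the highest (1.75), and the blood regulators (median 0.13) straddle 0.

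Other lists of the vessel wall held falls and 0 rises, with 40.7% to 63.6% of members called against 13.1% of all genes. These were 10 of 17 basement membrane genes (median -1.42), 11 of 18 cadherin and tight junction genes (-1.16), 7 of 11 integrins (-1.07), 5 of 11 matrix proteases and inhibitors (-1.19), 18 of 32 guidance genes (-0.94), 14 of 34 genes of the BMP and TGF-beta pathway (-0.52), 11 of 27 Wnt genes (-0.55) and 11 of 27 genes of the actin cytoskeleton (-0.68). The integrin count was 4 without Kit-D replicate 3, and the guidance count was 11 without both replicate 3 arrays. The Wnt count was 7 or 6 without Kit-D replicate 2 or 3 and 6 without Kit+D replicate 1. With housekeeping scaling the Wnt count was 3, the actin count 6 and the guidance count 11. Fzd4, a Wnt and norrin receptor of vessels, had log2 values of 5.06, 5.22 and 4.94 on the Kit+D arrays and 7.80, 7.37 and 7.94 on the Kit-D arrays and fell by 2.63 ± 0.18 (adjusted p = 2.25e-06). Acvrl1 and Eng, a receptor and co-receptor for BMP9 in endothelium, fell by 1.38 and 1.59 (adjusted p = 0.000511 and 0.000395). Zeb1 and Snai2, regulators of the passage from epithelium to mesenchyme, fell by 2.15 and 1.83 (adjusted p = 0.000132 and 6.53e-05). Mmp2, which cuts basement membrane collagen, fell by 2.496 ± 0.25 (adjusted p = 3.25e-05).

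Imprinted growth genes and Hox genes were lower as well. Of 17 imprinted genes 10 fell and 0 rose (58.8% against 13.1% of all genes, median -1.29). Igf2, a fetal growth factor, had log2 values of 7.03, 8.27 and 8.29 on the Kit+D arrays and 9.90, 10.45 and 10.36 on the Kit-D arrays and fell by 2.37 ± 0.29 (adjusted p = 0.000147). Cdkn1c, the cell cycle inhibitor p57, had log2 values of 6.55, 6.88 and 7.09 on the Kit+D arrays and 8.76, 8.86 and 8.69 on the Kit-D arrays and fell by 1.93 ± 0.20 (adjusted p = 3.74e-05). Of 25 Hox genes 10 fell and 0 rose (40% against 13.1% of all genes, median -0.73). They were led by Hoxa5, with log2 values of 4.54, 4.72 and 5.04 on the Kit+D arrays and 7.27, 7.02 and 6.46 on the Kit-D arrays (-2.15 ± 0.22, adjusted p = 3.64e-05). Hoxb4, which expands blood progenitors when forced, fell by 1.73, whereas the adjusted p of Hoxa9 and Hoxa7, used in blood progenitors, was 0.222 and 0.0804. Without both replicate 3 arrays 5 Hox genes fell.

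The largest rises included germline genes as well as genes of other functions. Of the lists, that of primordial germ cell markers had the highest median (1.75) and is described below. Ifitm1, a small membrane protein induced by interferon and present in early germ cells, had log2 values of 11.499, 11.13 and 11.52 on the Kit+D arrays and 9.47, 8.09 and 8.44 on the Kit-D arrays and rose by 2.72 ± 0.28, 6.58-fold (adjusted p = 3.64e-05). Mt2, a metal-binding metallothionein with close copies on the genome, had log2 values of 10.32, 10.78 and 8.98 on the Kit+D arrays and 6.70, 7.45 and 7.43 on the Kit-D arrays and rose by 2.83 ± 0.46 (adjusted p = 0.00103). Apoc1, a lipoprotein component, had log2 values of 8.18, 7.85 and 7.62 on the Kit+D arrays and 6.17, 5.48 and 4.56 on the Kit-D arrays and rose by 2.48 ± 0.44 (adjusted p = 0.00198). On all 3 genes the groups did not overlap. Further large rises were those of Pmm1, an enzyme of mannose metabolism (2.73), Zyg11a (2.48), Zswim1 (2.14), Ccnb1ip1, a meiotic crossover protein (2.29), Cox7a1, a subunit of cytochrome oxidase (2.06), and Rpl39l, a germline copy of a ribosomal protein gene whose near-identical parent gene may share its probes (2.74). The Rpl39l call was lost without Kit+D replicate 2 (adjusted p = 0.0534). H2ac4, a histone gene with near-identical copies, rose by 2.07 and lost its call without Kit-D replicate 1 or 2 or Kit+D replicate 2 or 3 (0.0694 to 0.0848).

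Of 35 genes of DNA replication and mitosis 19 rose and 0 fell (54.3% against 13.1% of all genes, median 0.68). The helicase subunits Mcm7, Mcm5 and Mcm4 and the replication factor Mcm10 rose by 1.47 ± 0.20, 0.89 ± 0.14, 0.99 ± 0.16 and 1.33 ± 0.22. Mcm7 had log2 values of 8.84, 9.02 and 9.54 on the Kit+D arrays and 7.91, 7.41 and 7.68 on the Kit-D arrays, with no overlap (adjusted p = 0.000319). The count was 20 without Kit+D replicate 1, 11 without both replicate 3 arrays, 9 without Kit-D replicate 2, 9 in a fit of the 6 arrays alone and 7 with housekeeping scaling. Of 14 D cyclins, partner kinases and inhibitors 2 rose and 3 fell (35.7%, median -0.05). The falls were those of Ccnd1, Cdkn1c and Cdkn1b, the inhibitor p27 (-1.19). Another Cdkn1b probe set of similar level differed by -0.94 and was not called (limma p adjusted over all probe sets 0.202). The Cdkn1b call was lost without both replicate 3 arrays (adjusted p = 0.11). The rises were those of Ccnd3, the cyclin D3 (0.50 ± 0.14, adjusted p = 0.026), and E2f1, a factor of S phase entry named after its value was seen (0.63 ± 0.18, adjusted p = 0.0296). Ccnd3 lost its call without Kit+D replicate 1 or 3 or Kit-D replicate 2 or 3 (adjusted p 0.0554 to 0.0936) and with the replicate block over all arrays (0.0873). The count of rises was 1 or 0 when each of the 6 arrays was left out in turn, and 0 with that block. Ribosome biogenesis showed 10 rises and 0 falls among 19 genes (52.6% against 13.1% of all genes, median 0.50). Rrp12, a ribosome export factor, had log2 values of 7.34, 7.83 and 7.52 on the Kit+D arrays and 6.24, 6.08 and 6.39 on the Kit-D arrays and rose by 1.33 ± 0.17 (adjusted p = 0.000189). The count was 4 without both replicate 3 arrays or Kit-D replicate 1, and between 5 and 6 without Kit-D replicate 2 or 3 or Kit+D replicate 2 or 3. With housekeeping scaling 3 of these genes rose. Among 89 subunits of oxidative phosphorylation, a family chosen after its values were seen, 23 rose and 2 fell (28.1% against 13.1% of all genes, median 0.28). With housekeeping scaling the count of rises was 10, and without Kit-D replicate 1 or 2 or Kit+D replicate 2 it was 11, 15 or 9.

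Regulators and receptors of blood were called at shares near or slightly above that of all genes. Of 29 blood transcription factors 1 rose and 4 fell (17.2% against 13.1% of all genes, median 0.13). Myb, which definitive haematopoiesis requires, was the one that rose, with log2 values of 8.46, 8.88 and 6.89 on the Kit+D arrays and 6.26, 5.63 and 5.38 on the Kit-D arrays (difference 2.32 ± 0.47, adjusted p = 0.00493). The 4 that fell were Mecom, Fli1, Erg and Cbfb, the partner of the Runx proteins (-0.96 ± 0.21, adjusted p = 0.00881). Runx1, the regulator of blood emergence from endothelium, had log2 values of 8.75, 7.86 and 5.80 on the Kit+D arrays and 7.80, 7.05 and 6.92 on the Kit-D arrays (difference 0.21 ± 0.52, adjusted p = 0.833). Spi1, the myeloid and lymphoid factor PU.1, had log2 values of 8.80, 6.93 and 4.55 on the Kit+D arrays and 6.85, 4.79 and 4.87 on the Kit-D arrays (adjusted p = 0.318). Gfi1b, a repressor of endothelial genes in emerging blood cells, had log2 values of 8.55, 9.19 and 6.13 on the Kit+D arrays and 7.03, 7.21 and 6.42 on the Kit-D arrays (adjusted p = 0.231). In all 3 of these genes Kit+D replicate 3 was below every Kit-D array and Kit+D replicate 1 above every one.

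Many other blood factors had a like order. On Kit+D replicate 3, 26 of the 29 blood factors were below all Kit-D arrays, and on Kit+D replicate 1, 19 of 29 were above all of them. The shares of all genes in these positions were not counted. The mean of the list was 7.39, 7.03 and 5.80 on the Kit+D arrays and 7.01, 6.77 and 6.63 on the Kit-D arrays. Housekeeping genes averaged 9.444, 9.275 and 8.752 on the Kit+D arrays and 9.255, 9.137 and 9.203 on the Kit-D arrays, lowest on Kit+D replicate 3. Array weights were 0.396, 1.47 and 0.428 on the Kit+D arrays and 1.5, 1.4 and 1.53 on the Kit-D arrays. With housekeeping scaling 1 blood factor rose and 5 fell. The part of array quality in the order of the Kit+D arrays was not tested. Without both replicate 3 arrays 4 blood factors rose and 1 fell, and without Kit+D replicate 3 alone 8 rose and 4 fell. Of 30 receptors and surface proteins of blood cells 1 rose and 3 fell (13.3% against 13.1% of all genes, median 0.45). The one that rose was Ptpn6, the phosphatase SHP-1, with log2 values of 8.44, 7.71 and 8.43 on the Kit+D arrays and 7.75, 6.41 and 5.99 on the Kit-D arrays (adjusted p = 0.0132), a call lost without Kit-D replicate 2 or 3 (adjusted p 0.0598 to 0.0672). Those that fell were Cd93, a C-type lectin shared with endothelium (-2.25 ± 0.26), Cd34 (-1.56) and Procr, the protein C receptor (-1.30). Cd34 lost its call without Kit+D replicate 2 or 3 or Kit-D replicate 3 (adjusted p 0.0509 to 0.0617), and Procr without Kit-D replicate 3 (0.0822). Without both replicate 3 arrays 5 of the 30 rose and 1 fell, without Kit+D replicate 3 alone 9 rose and 2 fell, and with the replicate block over all arrays 4 rose and 3 fell. Without Kit-D replicate 3 the counts were 0 and 1.

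Myeloid markers were highest on the replicate 1 arrays. The 26 had 0 calls with limma in either direction (median 0.41), and 2 rose with the replicate block over all arrays or without Kit+D replicate 3, and 2 fell without Kit+D replicate 1. Their mean was 7.92, 5.32 and 4.76 on the Kit+D arrays and 6.89, 5.02 and 4.94 on the Kit-D arrays. On 21 of the 26 both replicate 1 arrays stood above the other 4. The share of all genes with that order was not counted. Tyrobp, a signalling adaptor of myeloid cells, had log2 values of 10.83, 7.35 and 5.11 on the Kit+D arrays and 10.46, 5.50 and 5.39 on the Kit-D arrays, and Mpo, the peroxidase of granulocyte precursors, had log2 values of 10.60, 8.27 and 3.97 on the Kit+D arrays and 9.32, 6.56 and 4.59 on the Kit-D arrays. Megakaryocyte markers had 4 falls among 14 (28.6%), and Ppbp and Clec1b, a platelet receptor, fell by 3.41 and 2.62. Erythroid markers had 2 rises among 15 (13.3% against 13.1% of all genes), Tfrc, the transferrin receptor (1.18), and Rhag (1.94). Tfrc lost its call without Kit+D replicate 2 or Kit-D replicate 3 (adjusted p 0.0565 to 0.057), and Rhag without any Kit-D array or Kit+D replicate 1 or 2 (0.0666 to 0.141). The count of erythroid rises was 6 without Kit+D replicate 3, 5 without both replicate 3 arrays, 0 without Kit+D replicate 2 or Kit-D replicate 3, and 1 when each other of the 6 arrays was left out. Hbb-y, an embryonic globin, had log2 values of 11.39, 11.32 and 10.37 on the Kit+D arrays and 11.40, 11.997 and 9.97 on the Kit-D arrays. Its arrays overlapped (adjusted p = 0.935).

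Stromal, mural and mesenchymal markers, which stromal lines can also express, had 9 falls and 0 rises among 27 (33.3% against 13.1% of all genes, median -0.78). Their mean was 4.97, 5.27 and 5.93 on the Kit+D arrays and 5.82, 6.45 and 6.41 on the Kit-D arrays. Pdgfra, a receptor of mesenchyme, had log2 values of 4.57, 5.10 and 5.11 on the Kit+D arrays and 5.76, 7.52 and 6.35 on the Kit-D arrays (difference -1.62 ± 0.36, adjusted p = 0.00911). Mgp, a matrix protein, had log2 values of 4.98, 6.03 and 9.75 on the Kit+D arrays and 6.22, 6.56 and 10.55 on the Kit-D arrays, and Acta2, the actin of smooth muscle, had log2 values of 4.76, 6.41 and 9.38 on the Kit+D arrays and 7.16, 7.69 and 9.92 on the Kit-D arrays. For both genes the replicate 3 arrays were the highest in each group. The count of falls was 4 without Kit-D replicate 2 or Kit+D replicate 2, and 3 without Kit+D replicate 1. It was 2 with housekeeping scaling and 1 in a fit of the 6 arrays alone. The part of these markers in the falls of matrix, guidance and actin genes was not tested.

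Primordial germ cell markers were divided within Kit+D. Of 34 measured genes 13 rose and 1 fell (41.2% against 13.1% of all genes, median 1.75). The fall was that of Pecam1, which is also an endothelial gene. Sycp3, a protein of the meiotic chromosome axis, had log2 values of 5.09, 7.94 and 7.85 on the Kit+D arrays and 3.58, 4.06 and 4.68 on the Kit-D arrays and rose by 2.85 ± 0.60 (adjusted p = 0.00649). Dppa5a, a marker of pluripotent and germ cells, had log2 values of 8.002, 11.51 and 11.87 on the Kit+D arrays and 5.86, 7.37 and 8.91 on the Kit-D arrays (adjusted p = 0.0218). Dazl, an RNA-binding protein of germ cells, had log2 values of 4.90, 9.34 and 10.09 on the Kit+D arrays and 4.06, 4.53 and 6.46 on the Kit-D arrays (adjusted p = 0.0432). For all 3, Kit+D replicates 2 and 3 were well above replicate 1. Pou5f1, the pluripotency factor Oct4, had log2 values of 4.75, 9.70 and 9.93 on the Kit+D arrays and 4.21, 4.43 and 7.20 on the Kit-D arrays and did not pass the test (adjusted p = 0.0872, or 0.0193 with the replicate block over all arrays). Nanog, its partner, had log2 values of 5.82, 8.79 and 9.67 on the Kit+D arrays and 6.44, 6.29 and 6.51 on the Kit-D arrays (adjusted p = 0.105), and Ddx4, the germ cell helicase Vasa, had log2 values of 4.60, 7.67 and 8.94 on the Kit+D arrays and 3.88, 5.16 and 5.72 on the Kit-D arrays (adjusted p = 0.0726, or 0.00586 with that block).

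On Kit+D replicates 2 and 3, 32 of the 34 germ cell markers were above every Kit-D array, and on Kit+D replicate 1, 6 were. For all genes these shares were not counted. The list's mean was 5.68, 7.99 and 8.68 on the Kit+D arrays and 5.40, 5.66 and 6.29 on the Kit-D arrays. Within the same-numbered pairs the median difference of the list was 0.13, 2.42 and 2.57. Without Kit+D replicate 1 the calls were 29 rises and 1 fall, without both replicate 3 arrays 5 and 1, with the replicate block over all arrays 21 and 1, and in a fit of the 6 arrays alone 1 and 0. Without Kit-D replicate 1 or 2 or Kit+D replicate 2 or 3, 3, 2, 2 or 3 of them rose, in that order. Dppa5a and Dazl lost their calls without Kit+D replicate 2 or 3 or Kit-D replicate 1 or 2 (adjusted p 0.0624 to 0.1 for Dppa5a and 0.13 to 0.168 for Dazl). Sycp3, Rpl39l and Zyg11a, named above among the largest rises, were likewise lower on Kit+D replicate 1 than on the other Kit+D arrays. Epithelial markers held 2 rises and 1 fall among 16 (18.8% against 13.1% of all genes). The count of rises was 6 without Kit+D replicate 1, 4 with the replicate block over all arrays, 0 without Kit-D replicate 1, Kit+D replicate 2 or both replicate 3 arrays, and 1 without Kit-D replicate 2 or 3 or Kit+D replicate 3. Epcam, which germ cells share with epithelia, had log2 values of 5.59, 7.63 and 8.58 on the Kit+D arrays and 4.80, 5.52 and 5.53 on the Kit-D arrays (adjusted p = 0.0163), a call lost without Kit+D replicate 2 or Kit-D replicate 1 (adjusted p 0.066 to 0.0674). The part of germ cells in the other rises was not tested.

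Promoter windows of germ cell genes are shown because these genes were high together on the same arrays. Of 22 germ cell genes with a window 6 (27.3%) held CACGTG, an E-box that reads the same on both strands, against 6.05% of all windows. The 2 with the smallest adjusted p were Sycp3 at chr10:88459337-88459586 (forward strand), with the letters at 64 and 43 bases before the start, and Stk31, a germ cell kinase-like protein, at chr6:49395289-49395538 (forward strand). Capitals mark CACGTG.
Sycp3: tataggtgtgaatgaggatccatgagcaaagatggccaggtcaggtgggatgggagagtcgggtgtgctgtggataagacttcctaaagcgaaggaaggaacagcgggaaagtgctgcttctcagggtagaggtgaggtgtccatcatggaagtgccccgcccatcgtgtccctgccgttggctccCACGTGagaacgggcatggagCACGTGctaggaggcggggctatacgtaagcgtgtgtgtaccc
Stk31: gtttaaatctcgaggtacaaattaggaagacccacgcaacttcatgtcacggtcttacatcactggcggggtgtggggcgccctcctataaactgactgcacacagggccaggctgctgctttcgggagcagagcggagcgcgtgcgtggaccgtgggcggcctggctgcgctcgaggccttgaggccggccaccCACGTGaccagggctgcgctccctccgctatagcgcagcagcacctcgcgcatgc

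**Figure D4:**
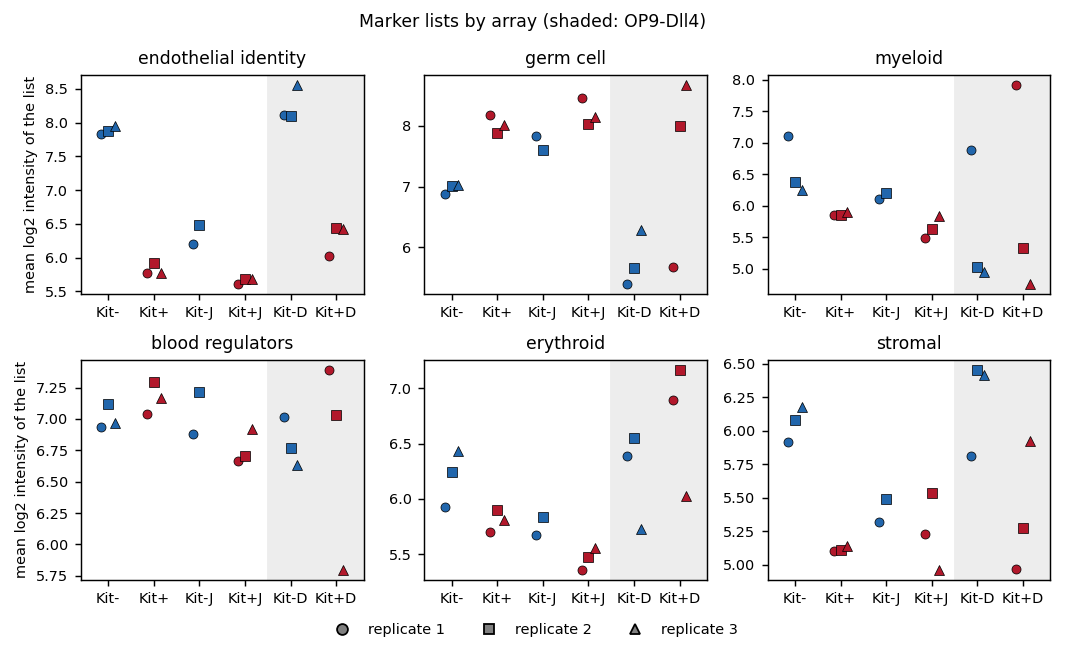
Mean log2 intensity of 6 marker lists on each of the 17 arrays, by group, with the replicate number as the marker shape, Kit+ groups in red, Kit- groups in blue and the OP9-Dll4 groups shaded (each panel has its own vertical range). Endothelial genes separate Kit+D from Kit-D, germ cell genes are low on Kit+D replicate 1 and myeloid genes are high on both replicate 1 arrays.

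Fresh cells divided by the same gate gave a reference with no array in common. There, 644 genes differed between Kit+ and Kit-, 112 higher and 532 lower. Of these 504 were also called on OP9-Dll4 (78.3% of the fresh list and 19.3% of the OP9-Dll4 list), 503 of them in the same direction. Kdr differed by -4.89 ± 0.34 in fresh cells and -3.77 ± 0.34 on OP9-Dll4, Tek by -3.47 ± 0.19 and -3.35 ± 0.19, and Efnb2 by -2.44 ± 0.25 and -2.05 ± 0.25. A direct test of the difference between the 2 gate differences called 0 genes with limma (0% of 19937, 1790 at an unadjusted p under 0.05, lowest adjusted p 0.158). Counts under other settings were 54 with array weights and at most 5 elsewhere. Of the embryonic globins, chosen after their values were seen, Hbb-y differed by -4.03 ± 0.55 in fresh cells and -0.10 ± 0.55 on OP9-Dll4 (difference 3.93 ± 0.78, adjusted p = 0.185), and Hba-x by -3.95 ± 0.54 and 0.40 ± 0.54 (4.35 ± 0.76, adjusted p = 0.158). Hes1 differed by 0.31 ± 0.32 in fresh cells and -1.10 ± 0.32 on OP9-Dll4 (adjusted p of the difference 0.396).

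On OP9-Jag1 the same gate gave 18 calls, 11 higher and 7 lower in Kit+J, of which 7 were also called on OP9-Dll4. The mean of the endothelial identity list was 6.20 and 6.48 on the Kit-J arrays and 5.61, 5.68 and 5.68 on the Kit+J arrays, closer together than on OP9-Dll4. The difference of the gate differences, OP9-Dll4 minus OP9-Jag1, was called for 395 genes (1.98% of 19937), 124 positive and 271 negative. It was called for 9 of the 40 endothelial identity genes, 5 of the 28 endothelial factors, 3 of the 12 venous genes and 0 of the 20 arterial genes. Itga2 differed by -3.46 ± 0.24 on OP9-Dll4 and -0.22 ± 0.27 on OP9-Jag1 (difference -3.24 ± 0.36, adjusted p = 0.00154). Fzd4 differed by -2.63 ± 0.18 and 0.31 ± 0.20 (-2.94 ± 0.27, adjusted p = 0.000467). Kitl differed by -3.08 ± 0.32 and -0.09 ± 0.36 (-2.99 ± 0.48, adjusted p = 0.00945), where its Kit-J arrays ran from 3.69 to 3.76 and its Kit+J arrays from 3.38 to 3.86. Ifitm1 differed by 2.72 ± 0.28 and 0.17 ± 0.31 (2.55 ± 0.42, adjusted p = 0.0108).

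Kdr, Tek and Nr2f2 also differed less on OP9-Jag1 (-0.80 ± 0.38, -1.40 ± 0.21 and -0.74 ± 0.22), with adjusted p of the difference of 0.0121, 0.00617 and 0.00839. Of the genes tied to Notch, Efnb2 had an adjusted p of 0.0568 for this difference, Hey2 of 0.0803, Hes1 of 0.228 and Jag1 of 0.283, none past the threshold. Germ cell markers had 2 of 34 calls, and their mean was 7.83 and 7.59 on the Kit-J arrays and 8.45, 8.03 and 8.14 on the Kit+J arrays, above that of every Kit-D array. The comparison rests on 2 Kit-J arrays, which the conflicting description line touches. When Kit-J replicate 1 was left out 91 genes were called, and when Kit-J replicate 2 was left out 811. Removal of Kit-D replicate 2 or 3 left 144 or 116 calls, that of Kit+D replicate 2 or 3 left 218 or 763, and that of Kit+J replicate 3 left 209.

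**Figure D5:**
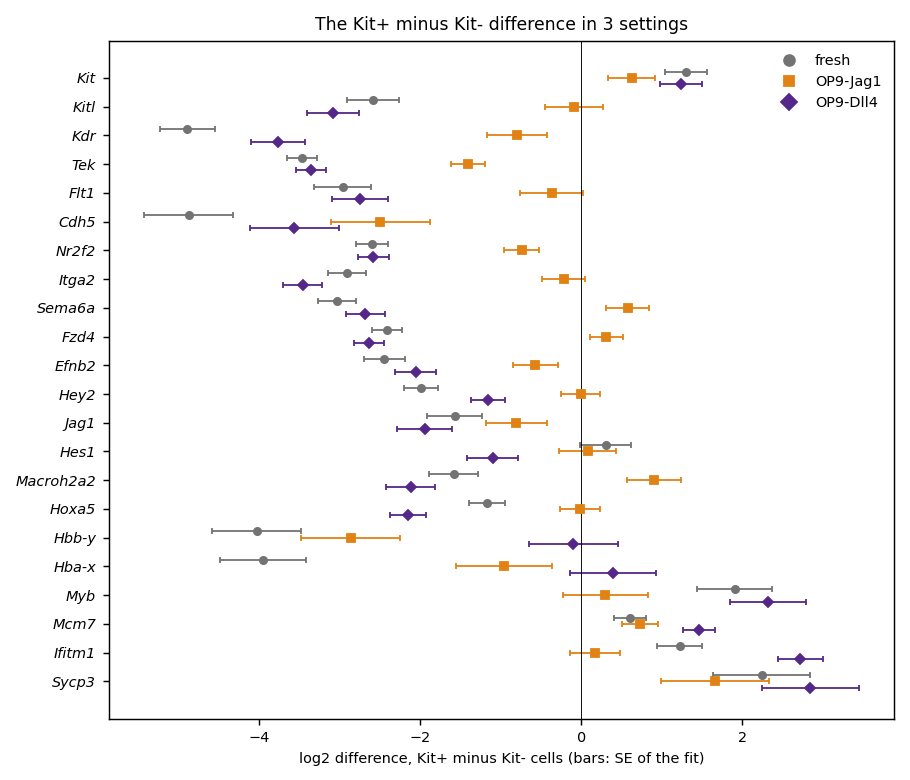
Log2 difference of Kit+ minus Kit- cells for 22 genes in fresh cells (grey), on OP9-Jag1 (orange) and on OP9-Dll4 (purple), with bars for the SE of the limma fit. For Kdr, Tek, Itga2 and Fzd4 the OP9-Jag1 value is the one nearest to 0, and for Hbb-y and Hba-x the OP9-Dll4 value is the one nearest to 0.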

How the data were processed

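RNA of 17 mouse gene arrays was measured, of which the 6 OP9-Dll4 arrays carry this comparison. The authors deposited RMA values on the log2 scale, and the RMA version is not given in the sources used here. Medians of the 6 arrays ran from 5.24 to 5.32, and the number of arrays limits the precision. Their housekeeping means ran from 8.752 (Kit+D replicate 3) to 9.444 (Kit+D replicate 1). Of 34760 probe sets 21640 have 1 gene symbol in the platform annotation, 1321 several and 11799 none, and 21553 of the first matched RefSeq by Entrez number. For each of 19937 genes the probe set with the highest mean was used.

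Group means of all 17 arrays were fitted with limma 3.58.1 (R 4.3.3, with data.table, version 1.17.8), since the methods name no test. The contrasts were Kit+D minus Kit-D, and its difference from the same gate in fresh cells and on OP9-Jag1. P-values were adjusted over all genes (Benjamini-Hochberg), with calls at an adjusted p under 0.05. The fit was tested on simulated data. The ranking took, of the called genes whose groups do not overlap, the 12 that rose most and the 12 that fell most, leaving out provisional symbols, olfactory receptors and small RNAs. Also named are Kit, Efnb2, Jag1, members of the Kit, Notch, VEGF, Tie, arterial, venous and blood lists, up to 4 of every other list by adjusted p, up to 4 by level for markers of other cells, and the 6 largest values in each direction of both differences. Klf2, Pou5f1, Nanog, Ddx4, Dazl, Pecam1, Mgp, Acta2, Ptprc, Adgrl4, the comparison of Hbb-y and Hba-x with fresh cells and the oxidative phosphorylation and proteasome families were chosen after their values were seen. Members and lists were chosen with earlier results of these data known. Promoter windows are from RefSeq (GRCm38.p6). Figures were drawn with Python 3.11.15 and matplotlib 3.10.9.

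Deviations from the group means correlated at 0.462, 0.179 and 0.289 between Kit+D and Kit-D arrays of the same number. Between other numbers they correlated at 0.134 or less. The numbers were therefore taken to pair the arrays in the alternative fits with a replicate block. The main fit had no such block, so its SEs, p-values and counts do not use the pairing. In the fit with a random block over all 17 arrays, the consensus correlation within blocks was -0.0644. Both fractions came from the same cultures per the methods, but no source says that the numbers mark them. The closing section gives the alternatives, of which the replicate block over all 17 arrays and the list counts by setting were chosen after seeing the data.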

Additional observations from a re-analysis of the deposited data

Results flagged for a closer look

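The gate difference was larger or smaller on OP9-Dll4 than on OP9-Jag1 in 395 genes, by a limma test of the difference itself. The 12 named by size were as follows, each value being the log2 difference on OP9-Dll4 minus that on OP9-Jag1. Lower on OP9-Dll4 were Gpx8 (-3.64), Sema6a (-3.26), Itga2 (-3.24), Macroh2a2 (-3.025), Flrt2 (-2.998) and Kitl (-2.992). Higher were Rpp25l (3.012), Ifitm1 (2.546), Ly6e (2.453), Ebi3 (2.212), Slc9a3r1 (2.158) and Commd5 (2.146). Sema6a, a guidance molecule, had log2 values of 5.48, 6.47 and 6.52 on the Kit+D arrays and 8.67, 8.93 and 8.91 on the Kit-D arrays. On OP9-Jag1 it was 6.08 on both Kit-J arrays and 6.50 to 6.93 on the Kit+J arrays. Macroh2a2, a histone variant, had log2 values of 6.42, 6.82 and 6.69 on the Kit+D arrays and 8.61, 8.84 and 8.85 on the Kit-D arrays. Its range on OP9-Jag1 was 6.36 to 7.07 in the Kit-J group and 6.97 to 8.13 in the Kit+J group. With 1 array left out at a time, Ifitm1, Itga2, Kitl, Macroh2a2 and Sema6a kept an adjusted p under 0.05 (highest 0.0379), and the other 7 did not (highest from 0.0698 to 0.177).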

How the results depend on the processing

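For Kit+D against Kit-D the count of 2615 moved to 4063 with array weights, 1488 without both replicate 3 arrays, 1216 with housekeeping scaling (median of all genes 0.09 in place of 0.05), 1218 when calls also had to reach a log2 change of 1, 1321 with the compared groups fitted alone and 1345 with a fixed replicate block on the OP9-Dll4 arrays alone (1214 of the 2615 calls kept). The replicate block over all arrays gave 2270 (1966 kept), a random replicate block 2331, a variance trend 2638, removal of dim genes 2152 of 11231, repeated quantile normalization 2401 (40.5% higher, against 49.6%), averaged probe sets 2613 and all probe sets 3464 of 34760. Array weights moved the share of higher calls to 57.2% and the replicate block on the 6 arrays to 38.2%. Leaving out 1 array gave 1573 to 3077. For the difference from fresh cells the count of 0 became 54 with array weights, 5 with all probe sets, 4 without both replicate 3 arrays, 1 with housekeeping scaling and 0 to 5 without 1 array. For the difference from OP9-Jag1 the count of 395 became 161 with array weights, 32 with housekeeping scaling, 44 with the compared groups alone and 91 to 811 without 1 array. The run without dim genes, those with a mean of at most 5.29, did not test Hey2, Dll4, Kitl and Sox17, among others. Of 167 named genes called, 106 stayed called in every alternative run that tested them, 61 lost the call in at least 1, and 0 reversed. The replicate block over all arrays ended 5 of these calls and added 13. The cause was not tested. A group left with 1 Kit-J array was assumed to vary like the others.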

Other observations

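Of 31 immediate early and dissociation response genes 8 fell in Kit+D and 0 rose (25.8% against 13.1% of all genes, median -0.37). The count was 5, 1 or 2 without Kit-D replicate 1, 2 or 3, 2 or 3 without Kit+D replicate 2 or 3 and 1 without both replicate 3 arrays. Dusp6, a phosphatase that turns off ERK and is induced by it, had log2 values of 7.76, 8.04 and 8.36 on the Kit+D arrays and 8.97, 9.17 and 9.56 on the Kit-D arrays and fell by 1.18 ± 0.19 (adjusted p = 0.00116). Sgk1, a kinase induced by serum and glucocorticoid, had log2 values of 6.08, 6.55 and 7.27 on the Kit+D arrays and 8.29, 8.33 and 8.79 on the Kit-D arrays and fell by 1.84 ± 0.24 (adjusted p = 0.000231). Klf2, which shear stress induces in endothelium, had log2 values of 6.91, 6.89 and 7.12 on the Kit+D arrays and 7.22, 7.04 and 7.15 on the Kit-D arrays, with no call (adjusted p = 0.496). Gclc, the rate-limiting enzyme of glutathione synthesis, had log2 values of 8.89, 8.94 and 8.79 on the Kit+D arrays and 7.55, 7.40 and 7.61 on the Kit-D arrays and rose by 1.35 ± 0.31 (adjusted p = 0.00959). Of 18 hypoxia and glycolysis genes 2 rose and 1 fell (16.7% against 13.1% of all genes, median 0.09). Aldoa, a glycolytic enzyme, rose by 1.05 (adjusted p = 0.00233), whereas Pfkfb3, which drives glycolysis in sprouting endothelium, fell by 1.12 (adjusted p = 0.00839). Of 15 genes of cholesterol synthesis and uptake 0 were called with limma (median 0.11), and 5 rose without Kit+D replicate 1.

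Of 22 genes of the NF-kB inflammatory response 2 fell and 0 rose (9.09%, below the 13.1% of all genes, median 0.10). Vcam1 and Icam1, adhesion molecules that bind leukocytes, fell by 1.21 and 1.29 (adjusted p = 0.00521 and 0.0141). The Icam1 call was lost without Kit-D replicate 3 (adjusted p = 0.0719). Of 40 proteasome subunits, a family chosen after its values were seen, 6 rose and 0 fell (median 0.20). This share of 15% is near the 13.1% of all genes, and 3 rose without both replicate 3 arrays.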
